A study of Mus musculus with 4 samples.

Results

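T cell receptor variable segments were taken as every row of the deposited count table whose symbol begins with Trav or Trbv followed by a digit. The rule found 133 rows of 19044, of which 109 were alpha chain segments (Trav) and 24 were beta chain segments (Trbv). For each chain, the share of a segment was its count as a percent of all counts of that chain's variable segments in the same library. The rule used no measured value.

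Messenger RNA was sequenced from regulatory T cells (Treg cells, a CD4 lineage that expresses Foxp3 and dampens immune responses) of untreated mice, taken from spleen together with lymph nodes. WT libraries came from Foxp3-YFP-Cre mice, in which Cre recombinase and yellow fluorescent protein are driven by Foxp3. Libraries labelled knockout came from Ripk1fl/fl Foxp3-YFP-Cre mice, which carry the same Cre together with floxed Ripk1 alleles. Recombination is thus meant to be limited to cells that have expressed Foxp3, which these data do not check. Each genotype gave 1 rTreg and 1 aTreg library, where r and a are the usual letters for the resting and the activated state. The labels do not state the age, sex or number of mice, any pooling or the sorting gate, nor whether both states of a genotype were taken from the same animals. With 1 library per group, a difference in share between 2 libraries has no replicate check.

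Each T cell assembles its receptor by joining 1 variable segment to a joining segment in the alpha chain, and a variable, a diversity and a joining segment in the beta chain. The variable segment encodes most of the receptor's outer domain, including loops that touch the major histocompatibility complex, so counts of variable segments over a population read out which segments its cells use. In the mouse, a stretch of the alpha locus is repeated, and its copies carry the suffix d or n in the segment name. A name ending in dv marks a segment that can join to either the alpha or the delta chain. In bulk RNA a larger share can come from more cells with a segment or from more RNA per cell, which cannot be told apart here.

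The sequences below show how alike the copies are, because the results turn on which copy a read was counted for. Each is a 120-base window of the variable exon on the plus strand of GRCm38, from GENCODE M21 transcripts. For each pair or trio the window with the most differing positions was picked, so it shows the segments where they are least alike. Capitals mark the positions that differ within the pair or trio. Trav8-1 (chr14:53469957-53470076) and its copy Trav8d-1 (chr14:52778720-52778839) differed at 3 positions of 285 aligned exon bases, an identity of 98.95%.
Trav8-1: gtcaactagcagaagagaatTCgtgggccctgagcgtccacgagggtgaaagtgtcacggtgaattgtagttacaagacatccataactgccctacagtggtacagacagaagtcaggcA
Trav8d-1: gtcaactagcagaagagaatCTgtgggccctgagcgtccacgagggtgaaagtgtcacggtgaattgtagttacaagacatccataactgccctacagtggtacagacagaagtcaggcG
Trav12-2 (chr14:53616701-53616820) and Trav12d-2 (chr14:52916213-52916332) differed at 11 of 292 exon bases, and the exon of Trav12d-2 was identical to that of Trav12n-2.
Trav12-2: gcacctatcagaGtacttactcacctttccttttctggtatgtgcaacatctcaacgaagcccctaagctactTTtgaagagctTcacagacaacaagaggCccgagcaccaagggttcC
Trav12d-2: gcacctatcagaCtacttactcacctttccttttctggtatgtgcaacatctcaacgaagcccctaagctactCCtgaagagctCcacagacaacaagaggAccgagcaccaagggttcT
Trav7-5 (chr14:53531154-53531273) and Trav7d-5 (chr14:52836228-52836347) are shown because the second was counted in the libraries labelled knockout alone, and its exon was identical to that of Trav7n-5.
Trav7-5: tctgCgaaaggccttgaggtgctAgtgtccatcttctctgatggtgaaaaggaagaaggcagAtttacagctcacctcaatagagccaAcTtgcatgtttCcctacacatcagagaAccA
Trav7d-5: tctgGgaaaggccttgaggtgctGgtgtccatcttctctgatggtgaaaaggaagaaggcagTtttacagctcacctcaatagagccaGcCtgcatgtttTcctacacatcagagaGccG
Trav15-1-dv6-1 (chr14:53560079-53560198) is the alpha segment, of those with at least 50 counts, that differed most between rTreg and aTreg libraries, and Trav15n-1 (chr14:53174728-53174847) is its relative in the n copy, at 95.05% identity.
Trav15-1-dv6-1: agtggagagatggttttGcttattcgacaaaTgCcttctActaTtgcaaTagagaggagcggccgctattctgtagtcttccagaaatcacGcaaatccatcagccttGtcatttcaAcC
Trav15n-1: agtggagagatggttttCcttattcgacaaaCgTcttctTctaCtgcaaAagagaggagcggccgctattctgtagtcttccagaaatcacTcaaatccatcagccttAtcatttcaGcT
The beta segments are less alike, as the Trbv13 trio shows, with 88.78% identity between Trbv13-2 (chr6:41121694-41121813) and Trbv13-1 (chr6:41116330-41116449) and 91.84% between Trbv13-2 and Trbv13-3 (chr6:41130447-41130566).
Trbv13-2: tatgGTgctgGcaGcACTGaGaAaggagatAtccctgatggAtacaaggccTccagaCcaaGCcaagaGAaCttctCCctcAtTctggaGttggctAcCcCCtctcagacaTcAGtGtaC
Trbv13-1: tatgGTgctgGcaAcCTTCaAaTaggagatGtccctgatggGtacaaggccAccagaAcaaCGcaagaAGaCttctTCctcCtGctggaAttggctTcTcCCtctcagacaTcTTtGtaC
Trbv13-3: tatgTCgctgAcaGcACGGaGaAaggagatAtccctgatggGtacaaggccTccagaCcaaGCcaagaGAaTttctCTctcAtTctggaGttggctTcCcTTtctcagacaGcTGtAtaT

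Of the 133 rows, 132 matched a GENCODE M21 segment, with Trav13-5 as the exception, and 14 of the matched rows were annotated as pseudogenes. For the 108 Trav rows with a sequence, the median share of 50-base windows found in no other transcript was 41.6%, 33 rows had no such window, and 36 were identical to another annotated segment. For the 24 Trbv rows the median was 100% and 18 rows were unique throughout. The read length and the treatment of reads that match several places were not stated in the labels, so the split of counts among alike Trav copies is uncertain.

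The libraries held 20868319 counts (WT rTreg), 20633355 (WT aTreg), 17588754 (rTreg labelled knockout) and 18857718 (aTreg labelled knockout). Ripk1, the targeted gene, stood at 83.6 and 77.5 CPM (counts scaled to a common library size) in the WT rTreg and aTreg libraries and at 84.7 and 80.8 CPM in those labelled knockout. Its genotype difference was not called (edgeR's quasi-likelihood test with Benjamini-Hochberg adjustment, adjusted p = 0.658), so the counts over the whole gene do not check the labels. Xist, the RNA of the inactive X chromosome, stood at 298.8 and 337.7 CPM in the WT libraries and at 0.284 and 0.213 CPM in those labelled knockout, so whatever differs with Xist, the sex of the mice included, and the genotype cannot be told apart. Summed CPM of 7 of 7 Treg markers lay between 3213 and 3641 in the 4 libraries, and the 2 of 2 CD8 T cell markers summed to between 7.82 and 12.9 CPM. Nearly all of that was Cd8b1, with 7.72 to 12.2 CPM, while Cd8a was at most 0.799 CPM. The summed level of 10 of 10 B cell markers was 360.7 and 608.4 CPM in the WT libraries and 778 and 735.2 CPM in those labelled knockout. Most of that was Ighm, while the defining marker Ms4a1 had 0 to 4 counts per library. Igkc, the kappa light chain constant gene of antibodies, had 21 and 31 counts in WT rTreg and aTreg and 365 and 300 in those labelled knockout, and it rose by 3.86 (log2, SE 0.25, adjusted p = 2.1e-07, edgeR). All 8 myeloid markers were in the table, and their sum was 1.76 and 1.84 CPM in WT against 7.72 and 5.97 CPM. The part of other cells in the results below was not tested.

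The alpha segments together received 3338 counts in WT rTreg, 3759 in WT aTreg, and 3296 and 3378 in rTreg and aTreg of the genotype labelled knockout. The beta segments received 10303, 9820, 7651 and 7593 counts in the same order, so beta counts were 2.25 to 3.09 times alpha counts. On the CPM scale the beta total was lower in the library labelled knockout by 0.18 (log2, 95% counting interval -0.22 to -0.13) in rTreg and by 0.24 (log2, interval -0.28 to -0.19) in aTreg. The alpha total was higher by 0.23 (log2, interval 0.16 to 0.30) in rTreg and differed by -0.02 (log2, interval -0.09 to 0.05) in aTreg. Each alpha count is thus a fine division of a small total, and 3 counts, the limit a count of 0 allows, equal 0.0798% to 0.091% of the alpha counts of a library. All intervals and limits in the text stand for the counting error of reads alone. PCR copies of a molecule are counted as separate reads, which can make the intervals too narrow for the number of molecules.

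Usage of the alpha segments was spread over many rows. Trav7-4 had the highest mean share, with 4.88% in WT rTreg, 4.26% in WT aTreg, and 6.46% and 5.89% in the rTreg and aTreg libraries labelled knockout. Trav3-3 followed with 3.92%, 4.31%, 3.55% and 3.79% in that order. The 8 segments with the highest mean share, Trav7-4, Trav3-3, Trav9-4, Trav14d-3-dv8, Trav4-4-dv10, Trav14-1, Trav9-2 and Trav13-1, together took 28.4% to 31.6% of a library's alpha counts. A count was seen for 89 and 84 of the 109 alpha rows in the WT rTreg and aTreg libraries and for 96 and 99 in those labelled knockout. The effective number of alpha segments, the exponential of the Shannon entropy of the shares, was 52.8 and 51.03 in WT rTreg and aTreg and 58.6 and 59.2 in the libraries labelled knockout. When rows at least 97% identical were joined, a grouping chosen after seeing the data, it was 36.6, 35.9, 37.2 and 37.8, and the gap between genotypes was smaller.

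The beta segments were fewer and more uneven. Trbv13-2 led in every library with 13.6% (WT rTreg), 15.0% (WT aTreg), 11.9% (rTreg labelled knockout) and 13.2% (aTreg labelled knockout). Trbv1, Trbv16, Trbv3, Trbv19, Trbv31, Trbv13-1 and Trbv15 came next in mean share, and with Trbv13-2 they took 63.0% to 67.0% of a library's beta counts. The effective number of beta segments lay between 15.1 and 16.0. Of the 24 rows, 19 had at least 100 counts in total, while Trbv12-3, Trbv18 and Trbv10 had under 10.

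The first comparison asks how usage differed between the states within a genotype. Segments with at least 50 counts over both libraries were compared, and a share ratio of at least 1.5-fold either way was counted. In WT, 11 of 47 alpha segments were that far apart, 6 higher and 5 lower in aTreg, and for 10 of them the counting interval left out equality. In the genotype labelled knockout, 7 of 49 were, 4 higher and 3 lower. On the CPM scale the same counts were 14 (29.8%) and 8 (16.3%), against a background of 11.9% of all genes with at least 50 counts in WT (28.6% of those with 50 to 500 counts) and 8.28% in the genotype labelled knockout (21.0% of those with 50 to 500 counts). The share of alpha segments on that scale was thus near that of genes with 50 to 500 counts in WT and below it in the genotype labelled knockout. Among beta segments 1 of 19 was at least 1.5-fold apart in WT, Trbv30, with 88 counts in rTreg and 39 in aTreg, and 0 of 19 in the genotype labelled knockout, where Trbv30 had 45 and 42 counts. In the additive test, edgeR called 0 of the 25 tested segments by state. It called 7.91% of all genes higher and 5.44% lower in aTreg. An unadjusted p under 0.05 was seen in that test for 2 of the 25 (Trbv16 and Trbv2). DESeq2 also called 0 of them, beside 423 of all 9680 genes. At a minimum mean of 1 CPM the state test called 1 member, Trav15-1-dv6-1, which lies under the 5 CPM minimum and fell by 1.56 on the log2 scale (SE 0.36, adjusted p = 0.0111, edgeR), beside 12.3% of all genes called at that minimum.

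Only a pair of alpha segments were at least 1.5-fold apart between states in the same direction in both genotypes, among 43 with enough counts in both. Trav15-1-dv6-1 had 65 counts in WT rTreg and 21 in WT aTreg, and 51 and 19 in the rTreg and aTreg libraries labelled knockout. Both rTreg libraries lay above both aTreg libraries. Its share went from 1.95% to 0.559% in WT (log2 ratio -1.80, interval -2.59 to -1.07) and from 1.55% to 0.562% in the genotype labelled knockout (-1.46, interval -2.30 to -0.67). As a dv segment, Trav15-1-dv6-1 can also join to the delta chain, and which chain its reads came from was not tested. The 5 rows of delta variable segments (Trdv) had 33 and 50 counts in WT rTreg and aTreg and 27 and 33 in those labelled knockout. With 91.9% of its 50-base windows found in no other transcript, Trav15-1-dv6-1 is among the more distinct alpha segments. Joined with its copies as the Trav15 family it held 92, 34, 72 and 35 counts, in the order of WT rTreg, WT aTreg and the rTreg and aTreg libraries labelled knockout. Trav7-6 went the other way, with 35 and 63 counts in WT rTreg and aTreg and 19 and 37 in those labelled knockout (log2 share ratio aTreg over rTreg 0.68 and 0.93).

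Several segments differed between states in 1 genotype. Trav12-1 had 41 and 36 counts in WT rTreg and aTreg but 23 and 48 in those labelled knockout. Trav6-3 had 16 and 40 counts in WT and 14 and 14 in those labelled knockout. Trav16 had 45 and 83 counts in WT and 30 and 30 in those labelled knockout, and Trav8n-2 had 32 and 47 against 39 and 23. Whether the state difference itself differed between genotypes was not tested for these segments.

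The second comparison asks how usage differed between genotypes within a state, and here the alpha segments stood far apart. In rTreg, 27 of 48 alpha segments were at least 1.5-fold apart in share (13 higher and 14 lower in the library labelled knockout), and 26 had an interval that left out equality. In aTreg, 28 of 48 were (15 higher and 13 lower), 25 of them with such an interval. At 2-fold the counts were 16 and 10. On the CPM scale 24 and 27 segments were at least 1.5-fold apart, beside 18.8% of all genes in rTreg and 22.6% in aTreg, or 35.4% and 40.6% of genes with 50 to 500 counts. On that same scale the alpha segments, with alike copies counted as separate rows, stood at 50% in rTreg and 56.25% in aTreg, above both backgrounds. With near-identical rows joined, 17 rows or groups in rTreg and 16 in aTreg were at least 1.5-fold apart in share. Joining left fewer rows to compare, and whether the joined rows also stood above both backgrounds was not tested. Many other genes differed in this contrast too. Over the 45 segments with enough counts in both states, 39 had a ratio of the same sign in both, 11 were at least 1.5-fold higher in both, 9 lower in both, and 0 were that far apart in opposite directions. Across these segments, which are parts of 1 total in each library and are not independent, the log2 ratios in rTreg and in aTreg had a Pearson r of 0.839. For all genes only the single-state backgrounds above were computed, so whether such agreement between states is particular to the segments was not tested.

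Trav8d-1 was among the segments with the largest ratio. It had 21 and 27 counts in the WT rTreg and aTreg libraries and 86 and 83 in those labelled knockout. Its share was 0.629% and 0.718% in WT and 2.61% and 2.46% in the libraries labelled knockout, with log2 ratios of 2.05 (interval 1.35 to 2.82) in rTreg and 1.77 (interval 1.13 to 2.46) in aTreg. Trav8-1, the near-identical segment printed beside it, went the other way, with 72 and 78 counts in WT and 31 and 29 in those labelled knockout (log2 ratios -1.20 and -1.27). Added together the pair took 2.79% and 2.79% of alpha counts in WT and 3.55% and 3.32% in those labelled knockout, so most of both differences cancelled within the pair.

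Trav7-3 had 56 counts in each WT library and 129 and 142 in the rTreg and aTreg libraries labelled knockout. The log2 share ratios were 1.22 (interval 0.76 to 1.70) and 1.497 (interval 1.04 to 1.97). Its near-identical copy Trav7d-3 moved the same way, with 23 and 32 counts in WT and 48 and 47, so the joined pair stayed 1.18 and 1.26 higher on the log2 scale. Trav6d-4 had 16 and 21 counts in WT and 45 and 57 in those labelled knockout, and its 75.4% of unique windows makes it one of the more distinct d copies. The other segments at least 1.5-fold higher in both states were Trav7d-4, Trav9d-1, Trav7-1, Trav21-dv12, Trav5-1, Trav4-2 and Trav6-2. Trav7-3 and Trav7d-3 fall in the same group when rows of at least 97% identity are joined. Counting them separately, 8 of the 11 higher segments stood in a row or group that was still at least 1.5-fold higher in both states. The groups of Trav7d-4 (1.41- and 1.39-fold in rTreg and aTreg), Trav9d-1 (1.23- and 1.12-fold, with intervals that hold equality) and Trav8d-1 did not.

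Trav12-2 had the lowest ratio in both states. It had 110 and 177 counts in WT rTreg and aTreg and 38 and 58 in those labelled knockout, so that the highest library of one genotype lay below the lowest of the other. Its share was 3.30% and 4.71% in WT and 1.15% and 1.72%, with log2 ratios of -1.52 (interval -2.09 to -0.97) and -1.46 (interval -1.91 to -1.02). Trav4-4-dv10 had 145 and 151 counts in WT and 53 and 73 in those labelled knockout (log2 share ratios -1.43 and -0.89). Trav13-1 had 114 and 149 against 54 and 82 (log2 -1.06 and -0.71). These 3 segments each stood alone when rows of at least 97% identity were joined, so for them joining left the counts as they were. The other segments at least 1.5-fold lower in both states were Trav10, Trav14-3, Trav6-7-dv9, Trav8-1, Trav13-2 and Trav7-6. After joining, 5 of the 9 lower segments stood in a row or group still at least 1.5-fold lower in both states. The groups of Trav10 (log2 -0.40 in rTreg and -0.13 in aTreg), Trav6-7-dv9 (-0.24 and -0.43), Trav7-6 (-0.63 and -0.58) and Trav8-1 did not.

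**Figure D1:**
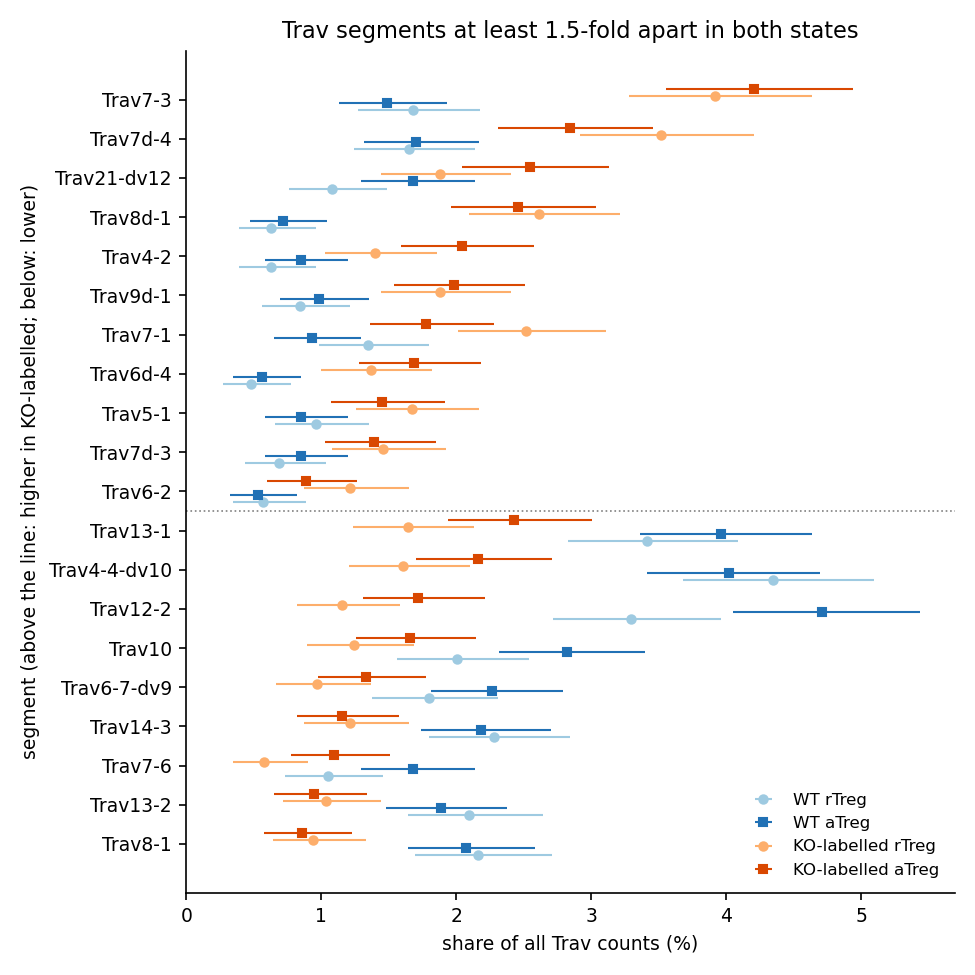
Share of all Trav counts (horizontal axis, percent) for the 20 alpha segments at least 1.5-fold apart between genotypes in the same direction in both states. Points are single libraries and bars are exact 95% counting intervals; the 11 segments above the dotted line are higher and the 9 below it are lower in the libraries labelled knockout, with Trav8d-1 and Trav8-1 on opposite sides.

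Some alpha segments with few WT counts stood further apart, and they were picked out after their values were seen. Trav6-6 had 5 and 4 counts in WT rTreg and aTreg and 32 and 30 in those labelled knockout. It has no unique window, and joined with Trav6d-6 and Trav6n-6 it had 32 and 54 counts in WT and 55 and 61, a share 1.74-fold higher in rTreg and 1.26-fold higher in aTreg, where the interval of the log2 ratio (-0.22 to 0.89) holds 0. Trav2 had 1 count in WT rTreg, 15 in WT aTreg, and 26 and 25 in those labelled knockout, so the WT rTreg library alone was low.

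Set along the alpha locus on chromosome 14, the genotype difference varied with position. The order was read from GENCODE M21 for 108 of the 109 segments, and the stretches were laid out with the values known. In rTreg, 3 of 3 segments before the d copies and 9 of 9 in the d copies with at least 50 counts had a higher share in the library labelled knockout, and in aTreg 4 of 4 and 8 of 8 did. In the n copies 5 of 6 had a lower share in rTreg and 5 of 6 in aTreg. Past the n copies, 23 of 30 were lower in rTreg and 21 of 30 in aTreg. Trav4-2, Trav7-3, Trav6-4 and Trav7-4, which lie close together just past the n copies, were higher in both states, while Trav6-3 among them was lower in aTreg and had too few counts for a ratio in rTreg. Trav21-dv12 near the far end was higher in both as well.

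**Figure D2:**
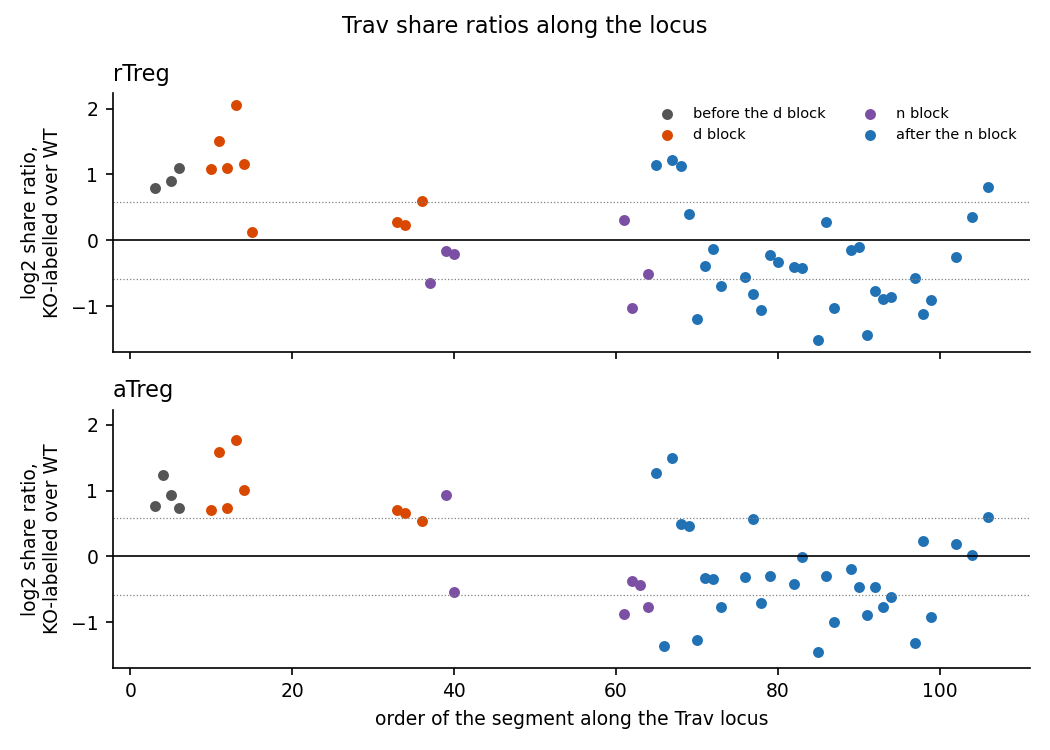
Log2 ratio of the share in the library labelled knockout over that in WT (vertical axis) against the order of the segment along the Trav locus (horizontal axis, from the end far from the joining segments), for rTreg (top) and aTreg (bottom). Each point is a segment with at least 50 counts over both libraries, coloured by stretch, and dotted lines mark 1.5-fold; the segments before the d copies and within them lie above 0 in both states.

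Summed over each stretch, the 30 d copies took 11.4% of alpha counts in WT rTreg and 10.8% in WT aTreg, against 21.4% and 20.8% in the libraries labelled knockout. Both libraries of a genotype lay within 1 percentage point of each other, and the log2 ratio between genotypes was 0.92 (interval 0.73 to 1.10) in rTreg and 0.95 (interval 0.77 to 1.13) in aTreg. The 6 segments before them, Trav1, Trav2, Trav5-1, Trav6-1, Trav7-1 and Trav6-2, took 4.16% and 3.59% in WT and 7.40% and 6.25%. The 28 n copies took 12.3% and 11.3% in WT and 11.0% and 10.2%, with intervals of the log2 ratio that hold 0. The 44 segments past the n copies took 72.0% and 74.1% in WT and 60.0% and 62.6%. When only rows with at least 50% of their windows unique were kept, an alternative chosen after seeing the data, 6 d copies took 10.02% and 8.61% in WT and 18.4% and 17.4% in the libraries labelled knockout. The 6 n copies kept that way had log2 ratios of -0.30 (interval -0.61 to -0.0014) in rTreg and -0.65 (interval -0.95 to -0.34) in aTreg, which leave out 0.

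**Figure D3:**
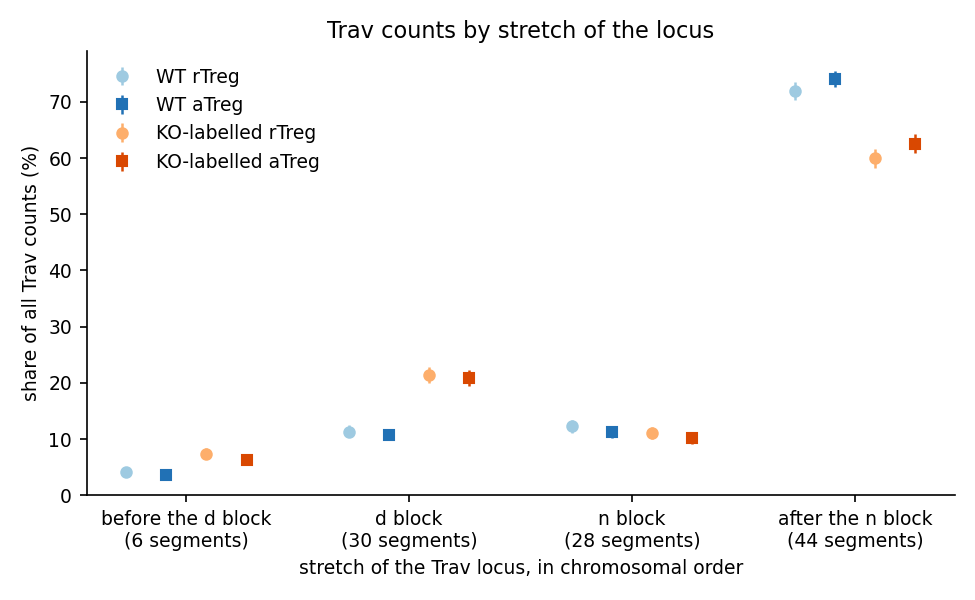
Share of all Trav counts (vertical axis, percent) in 4 stretches of the locus, in chromosomal order, for the 4 libraries; bars are exact 95% counting intervals. The d copies hold about the same share in rTreg and aTreg, 11.4% and 10.8% in WT and 21.4% and 20.8% in the libraries labelled knockout.

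Some alpha rows had no count in either library of a genotype. In both WT libraries 13 alpha rows were at 0 that had counts in a library labelled knockout, 5 of them d copies and 8 n copies. Together they held 66 counts in rTreg and 91 in aTreg of the libraries labelled knockout, which was 2.002% and 2.69% of alpha counts, and 9 of the 13 were counted in both. Trav7d-5 was the most frequent, with 8 and 19 counts in those 2 libraries. Trav9n-2 had 16 and 6 and Trav9d-3 had 7 and 11. All 13 rows were identical to another annotated segment and had no unique 50-base window. Conversely, 6 alpha rows had counts in a WT library and were at 0 in both libraries labelled knockout, with 15 counts in all. Some of the 13 rest on few counts, with 1 in all for Trav13n-2 and 4 each for Trav6n-7 and Trav12d-2. Of all 19044 rows, 16722 and 16977 had a count in WT rTreg and aTreg and 16477 and 16656 in those labelled knockout. How many of all rows were at 0 in 1 genotype alone was not counted. Joined with the identical partner, 6 of the 13 rows were still at 0 in both WT libraries and 5 had 1 to 4 WT counts, while for the other 2 the partner was not analysed here. Those 6 rows are partners of each other (Trav9d-2 with Trav9n-2, Trav12d-2 with Trav12n-2, Trav7d-5 with Trav7n-5), so each joined pair is counted through both of its rows. Trav7d-5 and Trav7n-5, whose exons are identical, together had 0 counts in both WT libraries and 8 and 24 in those labelled knockout, and Trav12d-2 with Trav12n-2 had 0, 0, 6 and 10 in the same order. Rows with no unique window took 1.498% and 0.798% of alpha counts in WT and 4.79% and 5.15% in the libraries labelled knockout. No beta row was at 0 in both libraries of a genotype. Whether reads of alike copies were assigned in the same way in all libraries was not tested.

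Joining copies into families, by the number after Trav, left smaller differences. The Trav7 family was the largest, with 15.6% and 14.1% of alpha counts in WT rTreg and aTreg and 21.7% and 20.4% in the libraries labelled knockout. The Trav13 family took 9.35% and 9.02% in WT and 5.70% and 6.16%. Trav9, the next in size after Trav7, took 11.8%, 12.2%, 12.3% and 11.3% in the 4 libraries in that order, with no more than 0.10 between genotypes on the log2 scale. Only 2 families with at least 50 counts were 1.5-fold apart between genotypes in rTreg, and 2 in aTreg.

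Among beta segments, Trbv13-3 differed most steadily between genotypes. It had 603 and 552 counts in WT rTreg and aTreg and 262 and 253 in those labelled knockout, a share of 5.85% and 5.62% against 3.42% and 3.33%. The log2 share ratio was -0.77 (interval -0.99 to -0.56) in rTreg and -0.75 (interval -0.97 to -0.54) in aTreg. It was the single beta segment of 19 at least 1.5-fold apart in both states. Its relatives differed less, since Trbv13-1 took 6.21% and 6.62% in WT and 6.46% and 6.48% in those labelled knockout, and Trbv13-2 had log2 ratios of -0.20 and -0.18.

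Trbv19 was higher in both libraries labelled knockout, with 6.43% and 6.19% in WT rTreg and aTreg and 8.91% and 8.995% (log2 ratios 0.47 and 0.54, intervals 0.32 to 0.63 and 0.38 to 0.70). Trbv23 was 1.88-fold higher in rTreg, with 61 counts in WT and 85 in the library labelled knockout, but 58 and 60 counts in aTreg gave 1.34-fold with an interval that holds equality. In all, 2 of 19 beta segments (10.5%) were at least 1.5-fold apart between genotypes in rTreg and 1 (5.26%) in aTreg. Of all genes with at least 50 counts, 18.8% in rTreg and 22.6% in aTreg were that far apart on the CPM scale. On that scale 3 beta segments were in rTreg. The shares of all 19 beta segments with at least 100 counts are in the plot of Trbv shares.

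**Figure D4:**
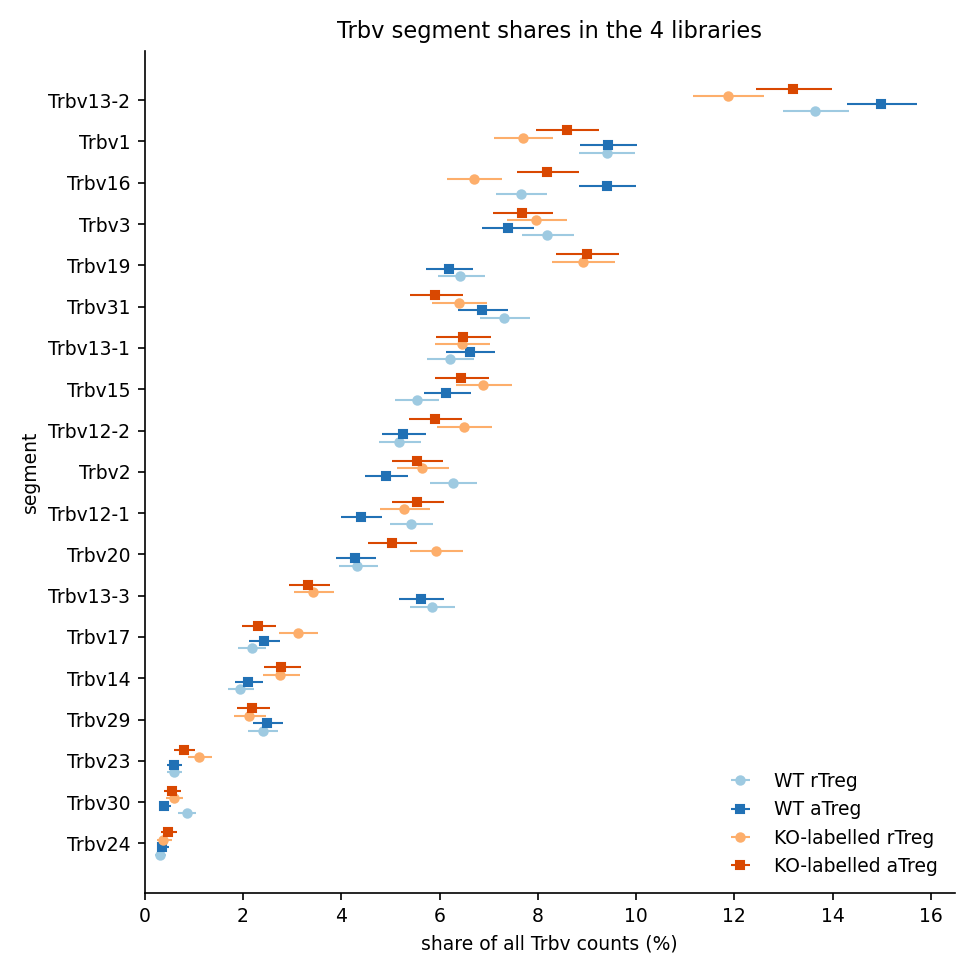
Share of all Trbv counts (horizontal axis, percent) for the 19 beta segments with at least 100 counts in total, in the 4 libraries, with exact 95% counting intervals. Trbv13-3 is lower and Trbv19 is higher in both libraries labelled knockout, and Trbv13-2 leads in each library.

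One number per pair of libraries sums up these shifts, the distance, which is the part of the shares that would have to be moved to turn one library into the other. For alpha segments it was 11.6% between WT rTreg and aTreg and 12.5% between the libraries labelled knockout, but 25.1% between genotypes in rTreg and 24.5% in aTreg. The crossed pairs, which differ in both, were at 23.9% and 27.0%. For beta segments the distance was 4.76% and 4.27% between states and 9.40% and 7.73% between genotypes. Low counts enlarge such a distance. The chi-square per degree of freedom is near 1 for the counting noise of independent reads alone, and PCR copies can raise it. For the alpha count tables it was 2.25 and 2.11 between states and 6.17 and 6.41 between genotypes. For the beta tables it was 3.91 and 2.43 between states and 10.02 and 7.82 between genotypes. With alpha rows joined at 97% identity the distances were 9.60% and 10.8% between states and 20.4% and 18.9% between genotypes, and both pairs of different genotypes in the same state stayed above both pairs of the same genotype.

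**Figure D5:**
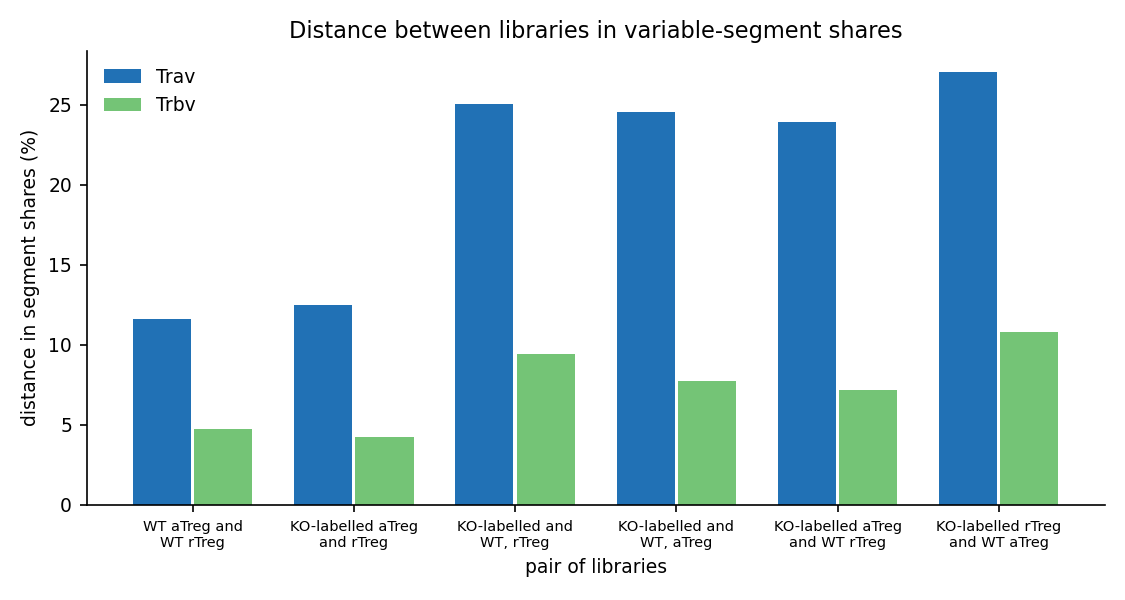
Distance in segment shares (vertical axis, percent of the chain's counts) for the 6 pairs of libraries and both chains. Pairs of the same genotype (11.6% and 12.5% for Trav) lie below every pair of different genotypes (23.9% to 27.0%).

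Levels were also tested with the other genes of the table, with state and genotype as additive terms and 1 residual degree of freedom, for all genes whose mean over the libraries reached 5 CPM. Of the members, 25 passed that minimum (9 Trav and 16 Trbv). The genotype term called 4 of them higher and 7 lower in the libraries labelled knockout, beside 24.4% of all 9680 genes called higher and 22.8% lower, so the members' share of 44.0% was near that of all genes. The alpha segments Trav7-3 (log2 change 1.46 ± 0.24, SE, adjusted p = 0.000279, edgeR), Trav7-4 and Trav14d-3-dv8 rose, and Trav4-4-dv10 (fell by 1.05 on the log2 scale, SE 0.23, adjusted p = 0.00264, edgeR) and Trav13-1 fell. Of the beta segments, Trbv19 rose (0.30 ± 0.10, SE, adjusted p = 0.0248, edgeR). Trbv13-3 fell by 0.97 on the log2 scale (SE 0.12, adjusted p = 3.9e-05, edgeR), and Trbv13-2, Trbv1, Trbv16 and Trbv31 fell by 0.40 to 0.42. The median log2 change over the 16 tested beta segments was -0.20, beside 0.00 over all genes tested. DESeq2 with the same terms kept 5 of these 11 calls, Trav7-3, Trav4-4-dv10, Trbv13-3, Trbv13-2 and Trbv1, beside 2527 of all 9680 genes called by it. Since 2 libraries stand for each genotype and nothing says they are separate animals, these p-values measure the spread between these libraries only.

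With a minimum mean of 1 CPM, 52 alpha segments could be tested. Of these, 13 rose and 6 fell, beside 42.8% of all genes called in either direction at that minimum. Trav8d-1 rose by 2.001 (log2, SE 0.33, adjusted p = 0.000228, edgeR) and Trav12-2 fell by 1.39 (SE 0.25, adjusted p = 0.000458, edgeR). The authors' deposited table, a comparison of the genotypes, gave an adjusted p under 0.05 to 4 alpha segments higher in the libraries labelled knockout (Trav6-6, Trav6d-4, Trav7-3 and Trav8d-1), 2 lower (Trav12-2 and Trav4-4-dv10), and to Trbv13-2 and Trbv13-3, both lower. In that comparison 59 alpha and 19 beta rows had an adjusted p. Of all 12398 rows with an adjusted p, 1192 were called higher and 868 lower, so segments were not called more often than other genes.

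Segments known from innate-like T cells were looked up by name. Trav11 and its copy Trav11d build the receptor of invariant natural killer T cells, while the copy Trav11n is annotated as a pseudogene. Trav11 had 1 count in WT rTreg and 0 in the other libraries. Trav11d had 1, 0, 2 and 6 counts in the order WT rTreg, WT aTreg, and rTreg and aTreg labelled knockout. Trav11 and Trav11d are identical and have no unique window, so the split between them is uncertain. Joined with Trav11n they had 5, 6, 4 and 7 counts in that order. Trav1, the segment of mucosal-associated invariant T cells, had 29, 17, 19 and 13 counts in that order. Its 78 counts in all are above the median of 67 over the alpha rows.

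The partner genes of the receptor were read from the same fit. Trbc2, a beta constant gene, had 773 and 632 CPM in WT rTreg and aTreg and 718 and 660.5 CPM in those labelled knockout, and it was not called by genotype (edgeR adjusted p = 0.825). Cd3e, Cd3g and Cd247, which encode signalling subunits of the receptor complex, were not called either, and nor was the co-receptor gene Cd4. Cd3d, another subunit of the complex, fell by 0.37 on the log2 scale (SE 0.07, adjusted p = 0.000617, edgeR). Of the 9 genes of that list, 7 were analysed, and 1 of the 6 tested was called, beside 24.4% of all genes called higher and 22.8% called lower. Trac and Trbc1 were not analysed here.

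Joining segments, which sit between the variable and the constant segments, were looked at after their values were seen. The 59 Traj rows together had 1777 and 2081 counts in WT rTreg and aTreg and 796 and 976 in those labelled knockout. Most were low, and only 1 Traj row reached the 5 CPM minimum of the test. The 14 Trbj rows had 1758 and 1313 counts against 825 and 802. The Traj sum was lower by 0.91 and the Trbj sum by 0.84 on the log2 scale in rTreg, while the variable totals differed by 0.23 and -0.18 there. Joining and variable counts of the same chain thus differed between genotypes by unlike amounts.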

How the data were processed

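RNA was extracted with TRIzol and sequenced from SMARTer libraries, per the labels. Per the submitters' processing notes, HISAT2 2.2.1 did the alignment to GRCm38 and featureCounts 2.0.1 the counting. No label states the annotation, the use of strand or the handling of reads with several matches. The deposited counts are whole reads per gene symbol, not normalized by the authors. The authors' second deposited table holds variance-stabilised values and a fold change on a log2 scale, a mean normalised signal, a test statistic that is a score, and p-values with adjusted p-values. Its fold change was turned to knockout over WT.

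Shares carry exact Clopper-Pearson intervals and share ratios exact binomial intervals conditional on the sum, both at 95% (scipy 1.17.1). Ratios used segments with at least 50 counts over 2 libraries. CPM used TMM factors of edgeR 4.0.16 in R 4.3.3, computed on the tested genes. Genes whose mean reached 5 CPM entered edgeR's quasi-likelihood test of state and genotype over all 4 libraries, with Benjamini-Hochberg adjustment at 0.05 over 9680 genes and a fitted biological coefficient of variation of 6.66%. The scripts were tested on simulated data. DESeq2 1.42.0 was an alternative. Libraries of 17588754 to 20868319 counts gave 3296 to 3759 alpha and 7593 to 10303 beta counts.

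Named segments were, per chain, the 8 of highest mean share, the 4 highest and 4 lowest ratios of each contrast, those 1.5-fold or more apart in the same direction in each state or in each genotype, Trav1, Trav11 and Trav11d, receptor complex genes, and called segments at least 1.5-fold apart. The members and lists were chosen with earlier results of these data known. Sequences and positions come from GENCODE M21.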

Additional observations from a re-analysis of the deposited data

How the results depend on the processing

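No paired analysis was possible because each group has 1 library and the labels carry no replicate numbers. In each chain the pairs of libraries of different genotypes stayed further apart than the pairs of the same genotype for families, for rows joined at 97% identity and with rows of at least 50 counts, while the order of genotypes in the effective number of alpha segments turned for families. The number of alpha segments at least 1.5-fold apart depends on depth and on joining copies. In the order aTreg over rTreg in WT, the same in the genotype labelled knockout, genotype in rTreg and genotype in aTreg, it was 0, 0, 1 and 3 with a minimum of 200 counts, and 2, 1, 2 and 2 for families. With rows joined at 97% identity it was 6 in WT between states and 17 and 16 between genotypes. A higher minimum or joined rows left fewer segments to compare, and no share of all genes was computed beside those counts. The number was 0 in all 4 contrasts with the deposited variance-stabilised values, in which low counts are drawn together. With a minimum of 20 counts it was 14 between states in the genotype labelled knockout. For beta segments it was 0 (between states in WT) and 1 (genotype, rTreg) at 200 counts, 1 (rTreg) and 0 (aTreg) between genotypes for families, 1 between states in the genotype labelled knockout on the CPM scale, and 0 in the other 3 contrasts with the variance-stabilised values.

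Alpha distances for families were 6.41% and 6.37% between states, 12.7% and 9.999% between genotypes, and 11.9% and 12.6% for the crossed pairs. At 97% identity they were 9.60%, 10.8%, 20.4%, 18.9%, 19.0% and 21.7%. With rows of at least 50 counts in total, those that moved were 10.7% (between states, labelled knockout), 23.0% and 22.5% (genotype) and 21.7% and 25.4% (crossed). The effective number of alpha segments, in the order WT rTreg, WT aTreg, and rTreg and aTreg labelled knockout, was 13.2, 13.3, 12.4 and 12.9 for families, 47.6, 47.2, 49.0 and 49.3 with rows of at least 50 counts, and 36.6, 35.9, 37.2 and 37.8 at 97% identity. For beta it was 11.1, 10.7, 11.9 and 11.5 for families, and 15.3 (WT rTreg) and 15.8 (rTreg labelled knockout) with rows of at least 50 counts.

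The beta total in rTreg was lower by genotype with a log2 ratio of -0.23 under upper-quartile scaling. With rows of at least 50% unique windows, the plain class had a log2 share ratio of -0.085 and the n class of -0.65 between genotypes in aTreg. The genotype term called 25 of 71 members at 1 CPM and 34 of 133 with no minimum. It called 5 of 25 with DESeq2 and 5 of 25 with genotype alone. Of all genes it called 5059 of 11810, 5308 of 19044, 2527 of 9680 and 1626 of 9680 in that order. The state term called 1 member at 1 CPM and 1 with no minimum, beside 1454 of 11810 and 1850 of 19044 genes. In both the DESeq2 fit and the fit of genotype alone, the calls lost were Trav7-4, Trav14d-3-dv8, Trav13-1, Trbv16, Trbv19 and Trbv31. The causes of these shifts were not tested beyond what the construction of each alternative shows. A segment under 50 counts over 2 libraries was given no ratio.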
